A study of Mus musculus with 8 samples.

Results

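The genes of the TSC complex and of the mTOR kinase complexes were followed through RNA sequencing of 8 mouse thoracic aortas. The set was given as a list of 10 gene symbols: Tsc1, Tsc2, Tbc1d7, Rheb, Mtor, Rptor, Rictor, Mlst8, Deptor and Akt1s1. All 10 were found among the 23993 genes of the deposited table, and all 10 passed the filter on low values that left 12107 genes for testing. The aortas came from male C57BL/6 mice at 24 weeks of age, 4 control and 4 knockout. Mice of both groups had Myh11-CreERT2, a Cre recombinase that tamoxifen switches on and the smooth muscle promoter of Myh11 drives, and the mT/mG fluorescent reporter, and both received tamoxifen at 1.5 weeks. Controls were Myh11-CreERT2.mT/mG with wild-type Tsc1 (Tsc1+/+), and knockouts were Tsc1fl/fl.Myh11-CreERT2.mT/mG (Tsc1-/-), in which Cre deletes the floxed part of Tsc1 in smooth muscle. The labels number the replicates and mention no pooling, so each library is taken as 1 animal. Were several libraries from 1 animal, the spread behind each p-value would be technical in part.

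In the cell, the TSC complex is a brake on growth. Tsc1 (hamartin) stabilises Tsc2 (tuberin), whose GTPase-activating domain switches off the small GTPase Rheb, and Tbc1d7 is the third core subunit. GTP-bound Rheb activates the kinase mTOR within mTOR complex 1 (mTORC1, built on the scaffold Rptor, or raptor), which promotes protein synthesis and restrains autophagy and lysosome formation. The second complex, mTORC2, is built on Rictor and phosphorylates AKT. Mlst8 and the inhibitor Deptor are shared by both complexes, and Akt1s1 (PRAS40) is an inhibitory subunit of mTORC1. In smooth muscle, loss of Tsc1 releases mTORC1, and the comparison of the 2 genotypes asks how the transcriptome of the aorta differs once that brake is gone. Regulation of these proteins is largely by phosphorylation, binding and location, which RNA levels do not show.

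The unit is FPKM, in which fragment numbers are divided by transcript length and by the size of the library, and levels of different genes can therefore be set side by side per length. Across the libraries 11867 to 12083 genes reached 1 FPKM, and the median-of-ratios factors between libraries ran from 0.987 to 1.01. The FPKM summed over all genes was 483615 to 937271 in controls and 453564 to 467703 in knockouts, without overlap. Relative depth, read from the spacing of the lowest values, ran from 0.758 to 2.46 with control 1 at 1. Absolute depth is unknown. Markers of contractile smooth muscle were high (Acta2 7659 ± 578 and Myh11 1716 ± 93.4 FPKM in controls, SD, n = 4). Markers of endothelium, fibroblasts, macrophages and fat were present too. The sample titles name thoracic aorta SMCs (smooth muscle cells), while the material extracted was whole vessels. In such bulk RNA, fewer cells of a type and less RNA per cell cannot be told apart.

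Of the 10 genes, 3 fell (Tsc1, Tsc2 and Rheb), 1 rose (Akt1s1) and 6 did not pass the test (limma on log2(FPKM + 1), with 0.05 as the limit for the Benjamini-Hochberg adjusted p over all tested genes). The 4 that passed are 40% of the set. Over all 12107 tested genes 32.2% passed, 17.1% as higher and 15.0% as lower in the knockout, so the share in the set is near the background. The median log2 difference, knockout minus control, was -0.00021 over the 10 genes and 0.0065 over all tested genes. The same 4 genes were those whose groups did not overlap, against 33.9% of all tested genes. The calls were modest in size: 19.3% of tested genes had a larger log2 difference than Tsc1, 34.0% than Rheb, 36.9% than Tsc2 and 41.1% than Akt1s1.

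**Figure D1:**
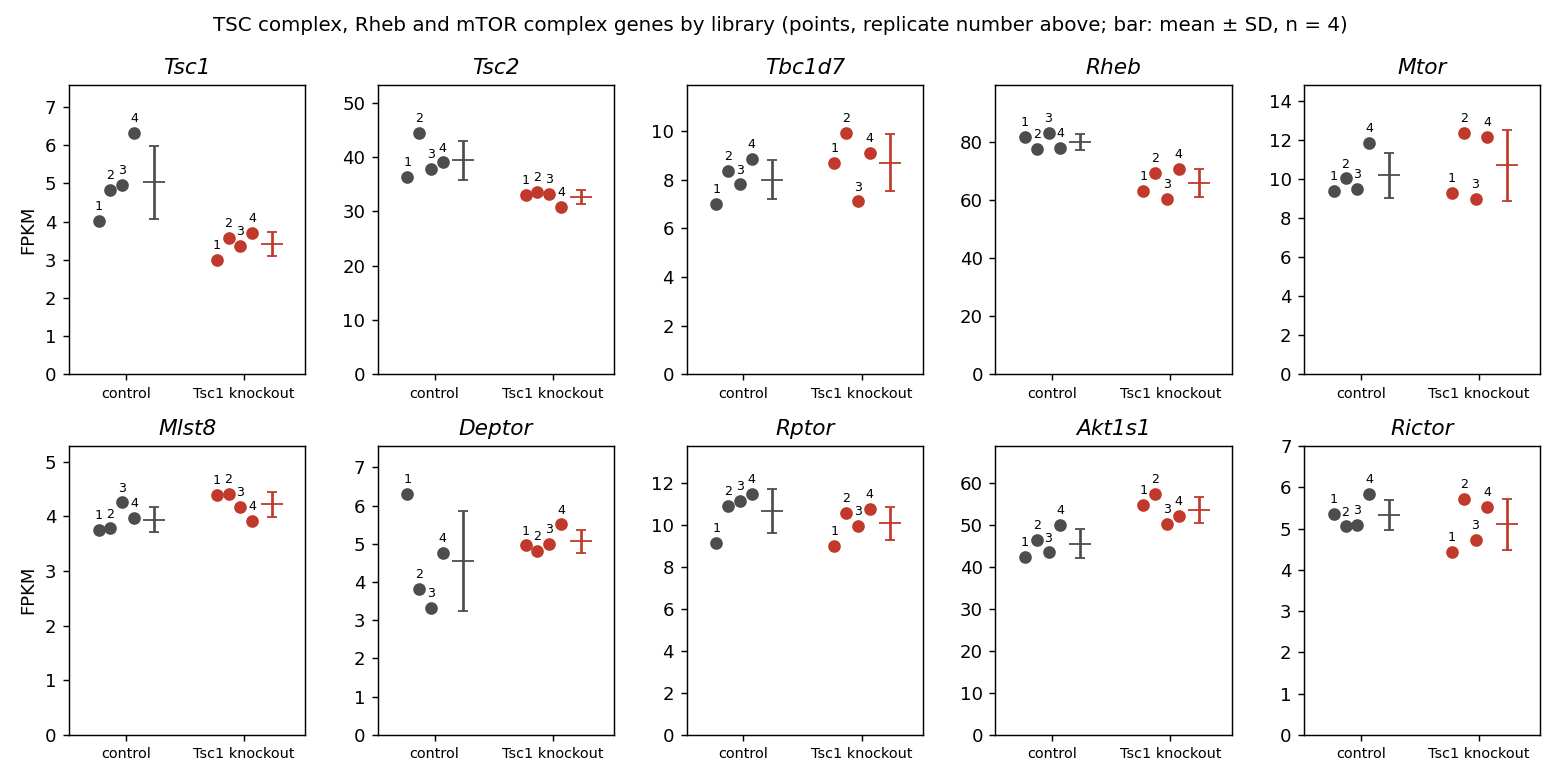
FPKM of each of the 10 genes in the 4 control (grey) and 4 Tsc1 knockout (red) libraries, with the replicate number above each point and the mean ± SD beside them (n = 4). The 2 groups are apart for Tsc1, Tsc2, Rheb (all lower in the knockout) and Akt1s1 (higher), and overlap for the other 6.

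The deleted gene itself, Tsc1, measured 4.03, 4.82, 4.95 and 6.32 FPKM in the controls (numbers 1 to 4) and 2.99, 3.58, 3.37 and 3.71 FPKM in knockouts 1 to 4. Every knockout lay below every control, but the gap between the lowest control (4.03) and the highest knockout (3.71) was narrow, and the controls were more spread (coefficient of variation 18.9%) than the knockouts (9.23%). The knockout mean was 67.9% of the control mean, falling from 5.03 ± 0.952 to 3.41 ± 0.315 FPKM (SD, n = 4), a log2 difference of -0.44 (SE 0.12, 95% interval -0.70 to -0.18, limma adjusted p = 0.019). Tsc1 lies on chromosome 2, 28641228 to 28691167 on the plus strand of mm10, with up to 23 exons in 1 annotated transcript. The value covers the whole gene, so it adds up transcripts from cells without Cre and any that a recombined allele still makes, and the 2 sources cannot be told apart. Which exons are floxed is not given in the sources used here. Its call was lost among the odd-numbered libraries alone (2 against 2, log2 difference -0.39, limma adjusted p = 0.081) and among the even-numbered ones alone (-0.49, 0.059).

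The 3 tested genes whose log2 values followed Tsc1 most closely over the 8 libraries were Gltscr1 (Pearson's r 0.991), Kdm3b (0.985), a histone demethylase gene, and F3 (0.983), which encodes tissue factor. These are the highest of 12106 correlations, given as a description. Genotype differences add to such a correlation: F3 fell from 66.6 ± 10.4 to 46.3 ± 5.64 FPKM and Gltscr1 from 5.45 ± 0.791 to 4.24 ± 0.265 FPKM. Kdm3b had a log2 difference of only -0.06 and did not pass, but its groups did not overlap either (11.02 to 11.66 FPKM in controls, 10.73 to 10.95 in knockouts).

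Tsc2, which encodes the catalytic subunit, had 36.3, 44.5, 37.8 and 39.1 FPKM in the controls (1 to 4) and 33.1, 33.5, 33.2 and 30.8 FPKM in knockouts 1 to 4. The knockout libraries were tightly grouped below all controls, of which control 2 was the highest. The mean fell from 39.4 ± 3.55 to 32.7 ± 1.23 FPKM (log2 difference -0.26, SE 0.07, limma adjusted p = 0.0214). The call was lost without knockout 4 (-0.23, limma adjusted p = 0.0539) and among the odd-numbered libraries alone (-0.16, 0.13). Tsc2 occupies chromosome 17, 24595816 to 24632630 on the minus strand, and its 3′ end shares 693 exonic bases with the 3′ end of Pkd1 (polycystin 1) on the opposite strand. Pkd1 was the more abundant of the pair and also fell, from 58.1 ± 7.55 to 43.6 ± 7.89 FPKM (log2 difference -0.42, limma adjusted p = 0.0461). The strand setting of the counting is not given in the sources used here, so fragments from the shared bases cannot be assigned to 1 of the 2 genes. On its other side, Nthl1, a DNA repair glycosylase gene, starts 49 bases away and is read in the opposite direction. Nthl1 went from 7.43 ± 0.888 to 6.34 ± 0.177 FPKM without passing the test (limma adjusted p = 0.101).

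Tbc1d7, the third subunit (chromosome 13, 43151740 to 43171501, minus strand), did not follow the other 2. It had 7.00, 8.38, 7.81 and 8.87 FPKM in controls and 8.71, 9.93, 7.11 and 9.10 FPKM in knockouts 1 to 4. The ranges overlapped, with knockouts 2 and 4 above every control. The log2 difference was 0.10 (95% interval -0.13 to 0.34, limma adjusted p = 0.475). Within the complex, Tsc1 transcript was the scarcest in every library. The ratio of Tsc1 to Tsc2 FPKM was 0.109 to 0.162 in controls and 0.0905 to 0.12 in knockouts, which overlap. The log2 ratio was lower by a mean of 0.277 in knockouts, with a two-sided exact permutation p of 0.143 over 70 assignments (0.429 adjusted over the 3 ratios compared). The smallest p this design allows is 0.0286.

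Rheb, the GTPase that the TSC complex switches off and the direct activator of mTORC1, was the most abundant of the 10 transcripts. Its values were 81.6, 77.5, 82.9 and 77.8 FPKM in controls and 63.0, 69.2, 60.2 and 70.4 FPKM in knockouts 1 to 4. Controls varied little (coefficient of variation 3.38%) and all lay above the highest knockout. Rheb fell from 79.9 ± 2.7 to 65.7 ± 4.9 FPKM, to 82.2% of control (log2 difference -0.28, SE 0.06, limma adjusted p = 0.0104). The fall was larger among the odd-numbered libraries (-0.41, limma adjusted p = 0.0121) than among the even-numbered ones, where the call was lost (-0.15, 0.0872). That difference between odd and even libraries did not pass its own test (limma interaction, -0.26, SE 0.08, adjusted p = 0.159). The gene spans chromosome 5, 24802823 to 24842624 on the minus strand. Its relative Rhebl1 was far lower and did not pass (3.39 FPKM in controls and 3.10 in knockouts, log2 difference -0.06).

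Sequence near the start of Rheb, of Tbc1d7 and of 4 genes described further on is shown because it holds CACGTG, the E-box letters bound by MiT/TFE factors, which mTORC1 keeps out of the nucleus. The E-box reads the same on both strands. It was searched in RefSeq promoter windows of GRCm38.p6, 250 bases before to 50 after a start site, which were given for 9 of the 10 genes (Deptor had none). Of these, 2 held it, against 8.09% of 27025 genes with a window, expressed here or not. Each line gives 30 bases, 5′ to 3′ on the gene's strand, with the E-box in capitals.
Rheb: gccgcgcgcggtCACGTGggtgtgttgttg
Tbc1d7: ccggttaacatcCACGTGtgggtgggactc
Telo2: atccgtgcaggtttCACGTGagctctgcga
Rragc: ggtgattccgggCACGTGatagtaccactt
Lamtor1: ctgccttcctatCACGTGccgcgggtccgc
Fnip1: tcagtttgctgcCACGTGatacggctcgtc
The motif begins 96 bases before the RefSeq start of Rheb (window chr5:24842440-24842469), 53 before that of Tbc1d7 (chr13:43171537-43171566), 112 before that of Rragc (chr4:123917309-123917338), 68 before that of Lamtor1 (chr7:101905757-101905786) and 75 before that of Fnip1 (chr11:54438092-54438121). In Telo2 it begins at base 35 of the transcript from 1 of its RefSeq starts (chr17:25115856-25115885). Of the 6 genes, Rheb fell, Tbc1d7 did not pass and the other 4 rose. The 4 that rose were picked for display after their values were seen. Elsewhere in the pathway lists Rragb, which rose, and Lamtor4, Irs1, Irs2, G3bp2, Eef2k and Sgk1, which did not pass, also held it. A match describes the letters and shows no binding.

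The kinase gene Mtor (chromosome 4, 148448611 to 148557683, plus strand) had 9.39, 10.04, 9.50 and 11.9 FPKM in the controls (1 to 4) and 9.29, 12.4, 9.01 and 12.2 FPKM in knockouts 1 to 4. Libraries numbered 1 and 3 were the low ones and those numbered 2 and 4 the high ones in both genotypes. The genotype difference was 0.06 on the log2 scale (95% interval -0.21 to 0.33, limma adjusted p = 0.748), and it changed sign without knockout 2, without knockout 4 and among the odd-numbered libraries alone (-0.01, -0.004 and -0.04). Odd-numbered libraries ranged from 9.01 to 9.50 FPKM and even-numbered ones from 10.04 to 12.4, without overlap (odd minus even -0.29, SE 0.07, limma adjusted p = 0.038 with genotype in the fit). Of all tested genes 9.11% passed that test. The labels attach no meaning to odd and even numbers. The split was taken up because earlier results of these data had shown odd-numbered and even-numbered libraries to stand apart. Its p-values, with those of the interaction below, therefore describe the split and are not independent evidence for it. Mtor was the only one of the 10 genes to pass the test of odd against even, although Tbc1d7 (-0.22, adjusted p = 0.0929), Tsc1 (-0.20, 0.196), Rictor (-0.15, 0.206) and Rptor (-0.15, 0.198) had estimates of the same sign. A limma interaction between genotype and odd or even number passed for 0 of the 10 genes, with a smallest adjusted p of 0.159, against 1.62% of all tested genes. At an unadjusted p under 0.05 it passed for 1 of the 10, Rheb, against 16.6% of all tested genes.

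**Figure D2:**
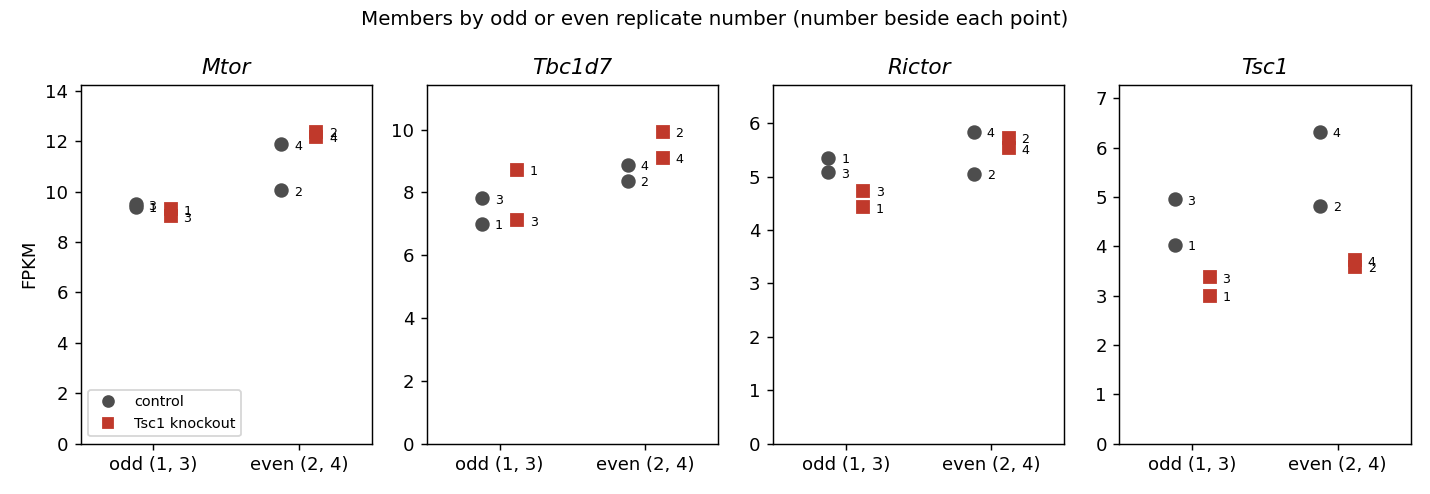
FPKM of Mtor, Tbc1d7, Rictor and Tsc1 with the libraries split by odd or even replicate number (grey circles control, red squares Tsc1 knockout, number beside each point). Odd-numbered libraries have 9.01 to 9.50 FPKM of Mtor and even-numbered ones 10.04 to 12.4 in both genotypes, while the Tsc1 knockouts lie below the controls on each side.

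The 2 subunits shared by both complexes did not pass. Mlst8, a WD-repeat protein that binds the kinase domain (chromosome 17, 24473551 to 24479078, minus strand), had 3.75 to 4.26 FPKM in controls and 3.92 to 4.41 in knockouts, with coefficients of variation of 5.92% and 5.47%. Its log2 difference was 0.08 (95% interval -0.07 to 0.23, limma adjusted p = 0.389). It overlaps Bricd5 on the opposite strand by 997 exonic bases. Bricd5 had 1.51 ± 0.174 FPKM in controls and 1.61 ± 0.247 in knockouts. As for Tsc2 and Pkd1, fragments from the shared bases cannot be assigned to 1 of the 2 genes. Deptor, an inhibitor that binds mTOR in both complexes (chromosome 15, 55112317 to 55259271, plus strand), had 6.30, 3.82, 3.32 and 4.75 FPKM in the controls (1 to 4) and 4.95, 4.81, 4.99 and 5.50 FPKM in knockouts 1 to 4. Controls were far more spread (coefficient of variation 28.9%) than knockouts (6.0%), and their range enclosed that of the knockouts. Its interval was accordingly the widest of the 10, from -0.18 to 0.49 around a log2 difference of 0.16 (limma adjusted p = 0.455), which ran from 0.05 without control 3 to 0.30 without control 1. The ratio of Deptor to Mtor spanned 0.349 to 0.671 among controls and 0.389 to 0.553 among knockouts (mean log2 difference 0.135, two-sided exact permutation p = 0.629, 0.914 adjusted), from 0.0306 without control 3 to 0.345 without control 1.

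Among subunits particular to mTORC1, Akt1s1 rose and Rptor did not pass. Akt1s1 encodes PRAS40, which AKT and mTORC1 phosphorylate and which inhibits mTORC1 when unphosphorylated. It had 42.2, 46.3, 43.4 and 49.9 FPKM in the controls (1 to 4) and 54.6, 57.3, 50.3 and 52.1 FPKM in knockouts 1 to 4. The groups were apart by a thin margin, 49.9 in the highest control against 50.3 in the lowest knockout. The mean rose 1.18-fold, from 45.5 ± 3.42 to 53.6 ± 3.07 FPKM (log2 difference 0.23, SE 0.07, limma adjusted p = 0.0312). Of the 4 calls this was lost under the most alternatives: without control 1, 2 or 3, without knockout 1 or 2 (log2 differences 0.20 to 0.24, limma adjusted p = 0.0563 to 0.0815), and among the even-numbered libraries alone (0.18, 0.144). Akt1s1 (chromosome 7, 44848991 to 44855421, plus strand) overlaps the start of Tbc1d17 by 89 exonic bases on the opposite strand. Tbc1d17 had nearly the same level in both groups (20.5 ± 3.29 and 20.2 ± 1.71 FPKM).

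Rptor, the scaffold that recruits mTORC1 substrates (chromosome 11, 119602905 to 119899576, plus strand), had 9.11, 10.9, 11.1 and 11.5 FPKM in controls and 8.98, 10.6, 9.93 and 10.8 FPKM in knockouts 1 to 4. Library 1 was the lowest in each genotype, and the ranges overlapped (log2 difference -0.07, 95% interval -0.26 to 0.12, limma adjusted p = 0.543). Rictor, the scaffold of mTORC2 (chromosome 15, 6708379 to 6800401, plus strand), had 5.35, 5.05, 5.09 and 5.84 FPKM in controls and 4.43, 5.72, 4.73 and 5.53 FPKM in knockouts 1 to 4. The knockouts split into 2 low libraries (1 and 3) and 2 high ones (2 and 4), and the genotype difference was -0.06 (95% interval -0.25 to 0.14, limma adjusted p = 0.649), turning to 0.04 among the even-numbered libraries alone. Rptor exceeded Rictor in every library, by 1.70 to 2.19 times in controls and 1.84 to 2.10 times in knockouts. The mean log2 ratio differed by -0.01 between genotypes (two-sided exact permutation p = 0.914), and it changed sign when control 2, control 3 or knockout 2 was left out.

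**Figure D3:**
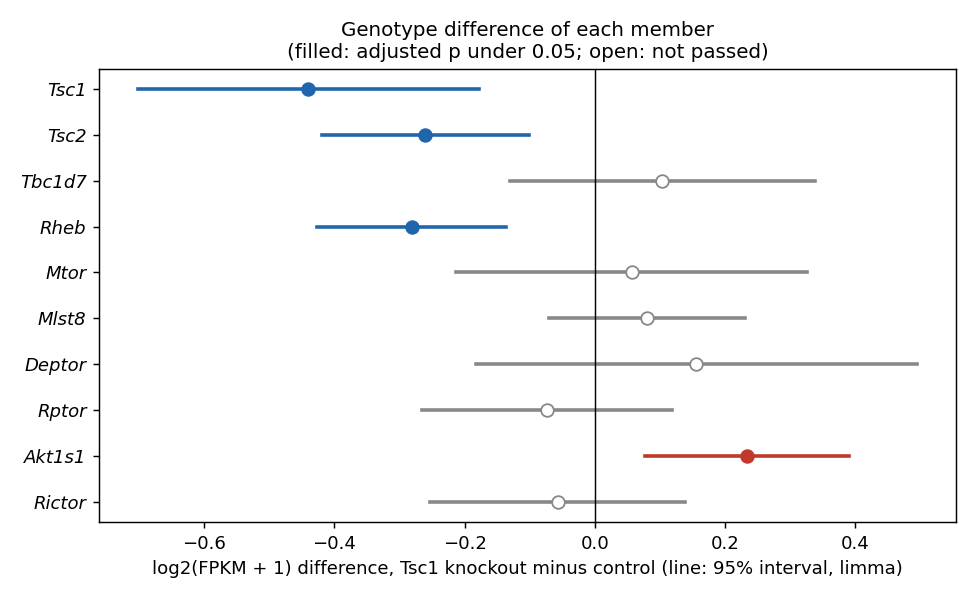
Log2(FPKM + 1) difference of each gene, Tsc1 knockout minus control, with its 95% interval from limma (filled points have an adjusted p under 0.05, blue lower and red higher). Tsc1 (-0.44), Rheb (-0.28), Tsc2 (-0.26) and Akt1s1 (0.23) have intervals that leave out 0, and Deptor has the widest interval.

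Set side by side per length, the 10 transcripts spanned an order of levels from Rheb (72.8 FPKM, mean of 8 libraries) to Mlst8 (4.08 FPKM), a ratio of 17.8. Akt1s1 (49.5) and Tsc2 (36.0) followed Rheb, and each exceeded the next in 8 of 8 libraries. A wide step separated Tsc2 from Mtor (10.5) and Rptor (10.4), which could not be ordered: Mtor was the higher in 5 of 8 libraries. Tbc1d7 (8.36) was below Rptor and above Rictor (5.22) in 8 of 8. Rictor, Deptor (4.81), Tsc1 (4.22) and Mlst8 formed a low group in which each range overlapped that of the next gene, and each gene was above the next in only 4 or 5 of 8 libraries. The ranges of Rictor and Mlst8, the highest and lowest of that group, did not overlap. The place of Tsc1 in this order differed by genotype. Tsc1 was above Mlst8 in every control and below it in every knockout. Deptor was above Tsc1 in every knockout but, among the controls, only in control 1. The small GTPase and the negative regulator PRAS40 were thus measured at several times the level of the kinase and both scaffolds. Rheb stood above 91.4% of tested genes by mean level and Mlst8 above 22.0%.

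The genes around these complexes were read from 7 lists, chosen with earlier results of these data known, of which 94 genes were tested. Of these, 19 rose, 11 fell and 64 did not pass, 31.9% called against 32.2% of all tested genes. The lists differed in how their calls were spread. Of 12 genes for other mTOR partners and chaperones, 1 rose and 2 fell (25% called, median log2 difference 0.01). Telo2, which with Tti1 helps assemble mTOR and related kinases, had 5.28, 5.43, 6.38 and 5.44 FPKM in the controls (1 to 4) and 13.6, 12.9, 12.1 and 13.0 FPKM in knockouts 1 to 4. All knockouts were close to 13 FPKM and far above the controls, a 2.29-fold rise from 5.63 ± 0.503 to 12.9 ± 0.624 FPKM (log2 difference 1.07, SE 0.07, limma adjusted p = 2.75e-05). Its partner Tti1 did not pass (6.70 against 7.21 FPKM, log2 difference 0.09). Telo2 lies on chromosome 17, 25099570 to 25115967. The neighbouring Ift140, whose end is 74 bases from that of Telo2, rose much less (4.82 ± 0.353 to 6.13 ± 0.131 FPKM). Fkbp1a, which encodes the rapamycin-binding protein FKBP12, fell from 243 ± 2.72 to 206 ± 3.95 FPKM (-0.24, limma adjusted p = 0.00401). Prr5 (Protor-1, an mTORC2 subunit) fell from 1.90 ± 0.415 to 1.02 ± 0.11 FPKM (-0.51, 0.0111, and -0.81 with a pseudocount of 0.1). Its call was lost among the even-numbered libraries alone. Among the other mTORC2 subunit genes in the list, Mapkap1 (13.2 against 14.0 FPKM) did not pass, nor did Prr5l (Protor-2), which had 2.60 ± 0.944 FPKM in controls and 4.30 ± 1.4 in knockouts (log2 difference 0.55, limma adjusted p = 0.0915).

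Upstream of the TSC complex, the share called was under the 32.2% of all tested genes. It was 18.8% for growth factors to AKT and 16.7% for energy, hypoxia and kinase inputs. On the arm from growth factors to AKT, 0 of 16 rose and 3 fell (median 0.02): Pik3cb, a catalytic subunit of PI3-kinase, from 7.55 ± 0.96 to 4.78 ± 1.44 FPKM, Pik3ca, another, from 18.0 ± 0.706 to 15.7 ± 0.862 FPKM, and the insulin receptor gene Insr from 18.2 ± 2.12 to 14.0 ± 2.11 FPKM. The Pik3cb call was lost without control 1, 2 or 3 or knockout 1 or 3, and the Insr call without control 2, 3 or 4 or knockout 1 or 3. That of Pik3ca was lost without any single library other than knockout 2. Akt1, Akt2 and Pdpk1 did not pass (log2 differences 0.17, 0.15 and 0.02). Among 18 genes for energy, hypoxia and kinase inputs, 2 rose and 1 fell (median -0.04). Ddit4l, a relative of REDD1 that restrains mTORC1, had 1.65, 1.64, 1.72 and 3.36 FPKM in controls and 5.97, 5.67, 5.66 and 4.77 FPKM in knockouts 1 to 4, with control 4 apart from the other controls (log2 difference 1.11, SE 0.16, limma adjusted p = 0.00131; call lost among the even-numbered libraries alone). Ddit4, which encodes REDD1 itself, did not pass (15.6 against 16.6 FPKM). Prkag2, a regulatory subunit of the energy sensor AMPK, fell from 35.1 ± 0.678 to 25.7 ± 3.27 FPKM (-0.44, limma adjusted p = 0.00536), and Mapk3 (ERK1) rose from 90.2 ± 8.19 to 107 ± 4 FPKM (0.25, 0.0271). The Mapk3 call was lost without control 1 or 3, without knockout 1, 2 or 3, and among the even-numbered libraries alone (0.10, limma adjusted p = 0.26).

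On the amino acid arm 46.7% of the list was called, against 32.2% of all tested genes. Of 15 genes for GATOR1, GATOR2, KICSTOR and sensors, 5 rose and 2 fell (median 0.03). The sestrin genes, which encode stress-induced proteins that hold back mTORC1 through GATOR2, all rose. Sesn3 went from 4.98 ± 0.695 to 14.6 ± 1.6 FPKM (log2 difference 1.39, SE 0.10, limma adjusted p = 5.49e-05), Sesn2 from 1.95 ± 0.344 to 4.44 ± 0.493 FPKM (0.89, limma adjusted p = 4.93e-04) and Sesn1 from 31.7 to 38.6 FPKM (0.28, 0.036). By contrast, 2 genes of KICSTOR, the scaffold that holds GATOR1 at the lysosome, fell: Kptn from 9.31 ± 0.823 to 5.80 ± 0.525 FPKM (-0.60, limma adjusted p = 8.97e-04) and Itfg2 from 6.44 ± 0.611 to 4.74 ± 0.517 FPKM (-0.38, 0.0114), the latter not called among the even-numbered libraries alone.

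Of 12 genes for Rag GTPases, Ragulator and folliculin, which dock mTORC1 on the lysosome where Rheb resides, 10 rose, 0 fell and Lamtor2 and Lamtor4 did not pass (median 0.42, against 0.0065 over all tested genes). The share called was 83.3%, against 32.2% of all tested genes. As the list was chosen with earlier results of these data known, that share describes the list and is not independent support. Rragc rose from 37.6 ± 0.571 to 58.0 ± 3.9 FPKM (0.61, limma adjusted p = 1.88e-04), Lamtor1 from 48.1 ± 1.79 to 62.6 ± 3.18 FPKM (0.37, 0.00144) and Lamtor3 from 40.5 ± 0.79 to 50.03 ± 1.17 FPKM (0.30, 0.00167). Rragd rose from the lowest level, 0.507 to 0.778 FPKM in controls, to 6.66 to 10.6 FPKM in knockouts (2.53, 2.56e-05, and 3.54 with a pseudocount of 0.1). All its controls lay under the filter of 1 FPKM, so Rragd entered the tested genes only through its high knockout values. Of the 11 genes of this list with a RefSeq promoter window, 5 held the E-box (45.5%, against 8.09% of all genes with a window, expressed here or not). Whether the E-box bears on the rises was not tested. The genes that held it were Rragb, Rragc, Lamtor1, Lamtor4 and Fnip1.

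Downstream of mTORC1, 1 of 15 substrates and effectors rose and 3 fell (median -0.09). The share called was 26.7%, under the 32.2% of all tested genes. Rps6, which encodes the ribosomal protein phosphorylated by S6 kinase, fell from 560 ± 20.1 to 402 ± 22.8 FPKM (-0.48, limma adjusted p = 4.66e-04). Under quantile scaling its difference was -0.27 (limma adjusted p = 0.00631). Fragments of this gene can be shared with processed copies. Eif4ebp1, the translation repressor 4E-BP1, went from 56.7 ± 3.95 to 47.5 ± 4.45 FPKM (-0.25, 0.0417), Tfeb from 19.2 ± 4.05 to 13.8 ± 1 FPKM (-0.43, 0.0376) and the lipin gene Lpin1 from 10.1 ± 2.27 to 15.1 ± 1.69 FPKM (0.55, 0.0209). The Eif4ebp1 call was lost without control 2, 3 or 4 or knockout 1, 3 or 4, that of Tfeb without control 2 or 4 or any 1 knockout, and that of Lpin1 without control 2 or knockout 3 or 4. The S6 kinase genes Rps6kb1 and Rps6kb2 did not pass (-0.16 and -0.14), nor did Ulk1 (0.13). For mTORC2, 0 of 6 tested genes of substrates or of proteins further down passed limma, against 32.2% of all tested genes (median -0.03). At an unadjusted p under 0.05 it was 1 of the 6, against 43.2% of all tested genes. The 6 included Sgk1 (45.9 against 34.1 FPKM, -0.30, limma adjusted p = 0.528) and Foxo1 (29.5 against 29.5 FPKM), whose product is a target of AKT.

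**Figure D4:**
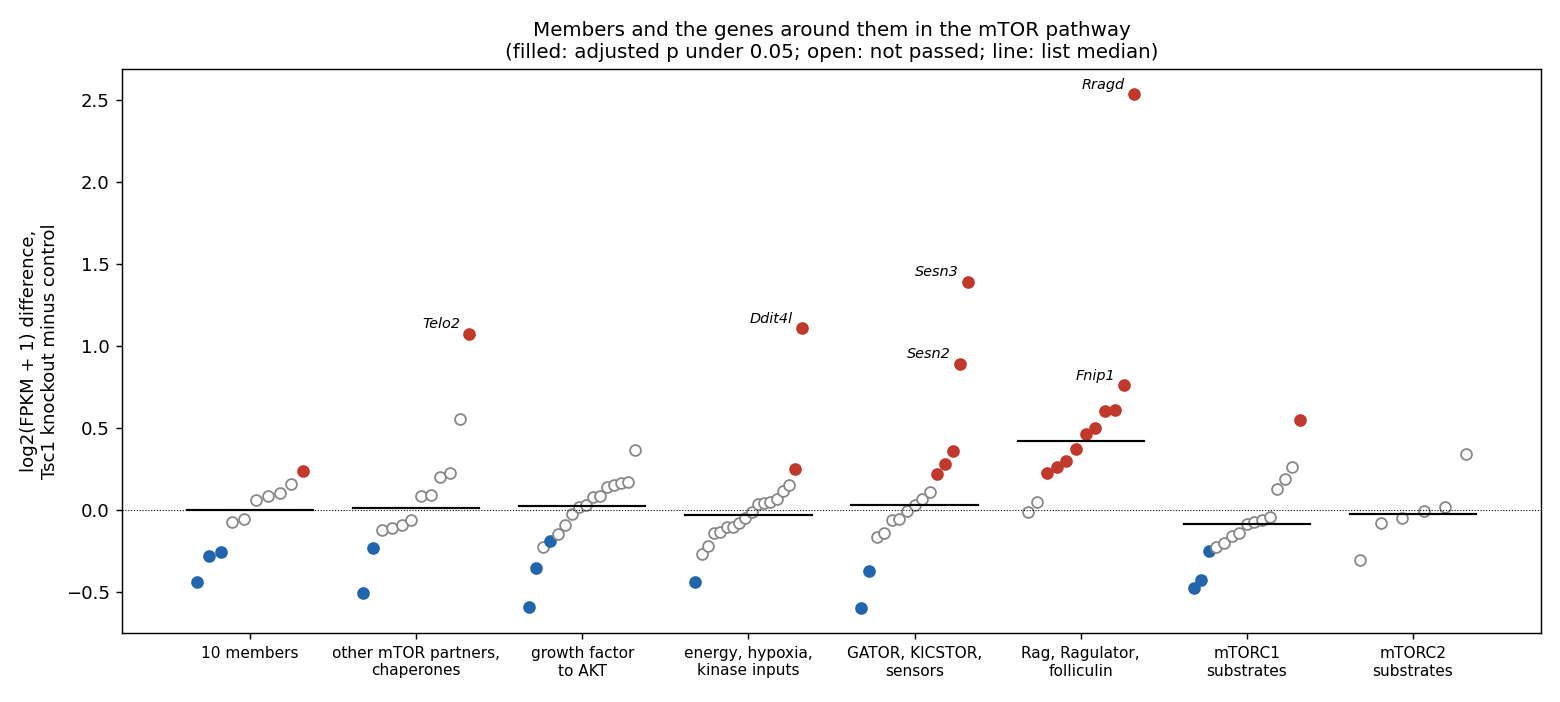
Log2(FPKM + 1) differences, Tsc1 knockout minus control, for the 10 genes and for the 7 lists around them, 1 point per tested gene (filled: adjusted p under 0.05, red higher and blue lower; open: not passed; line: median of the list). The medians lie near 0 except that of the Rag, Ragulator and folliculin list (0.42), and the labelled genes are those called with a difference over 0.7.

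Marker genes of several cell types also differed between the groups, and their part in the differences of the 10 genes was not tested. For comparison with the counts below, 15.0% of all tested genes were called lower and 17.1% higher by limma. At an unadjusted p under 0.05 the share was 43.2%. Of 10 contractile smooth muscle markers 5 were lower, and their summed level was 17736 to 18103 FPKM in controls and 11654 to 15637 in knockouts. Of 8 endothelial markers 5 were lower (226 to 310.1 FPKM summed in controls, 144 to 206 in knockouts), and of 8 adventitial fibroblast markers 4 were lower (1739 to 2167 and 1379 to 1830). Of 8 macrophage markers Adgre1 was not analysed here, and 0 of the other 7 passed limma, adjusted or not (209 to 293 and 175 to 238), and of 7 tested fat cell markers 0 passed and 1 had an unadjusted p under 0.05 (300 to 977 and 248 to 557, with all 8). Striated muscle markers had 1 higher (Tnnt2) and 2 lower (Ckm and Actn2) of 6 tested, with sums of 48.6 to 123 and 53.5 to 176 FPKM. Schwann cell and neuron markers had 3 lower of 4 tested (10.04 to 15.5 and 5.60 to 10.003), T, B and NK cell markers 0 of 1 tested (1.21 to 6.16 and 0.82 to 5.44), and red blood cell markers 0 of 4 tested (36.1 to 446 and 11.3 to 184), the last 2 lists also with 0 at an unadjusted p under 0.05. No marker in the table was at 0 in all 8 libraries.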

How the data were processed

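Polyadenylated RNA (500 ng of total RNA, RIN above 7) of 8 whole thoracic aortas was sequenced. The deposited values are FPKM per gene and library. The authors used TopHat2, Cufflinks, Cuffdiff and build mm10, per the submitters' processing notes (no versions or roles). Annotation, strand setting and scaling are not given there. Values were compared as deposited.

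The test was limma 3.58.1 (R 4.3.3), two-sided, with eBayes and trend, on log2(FPKM + 1), a scale that shrinks changes of low genes. It covered every gene averaging 1 FPKM or more. Genotype was the sole term, and p-values were adjusted over all tested genes (Benjamini-Hochberg). A second fit had odd or even replicate number and its interaction with genotype. That split was also chosen with earlier results of these data known. Ratios of 2 genes were compared by exact permutation. Alternatives changed the pseudocount, filter, scaling, trend, library weights, block or libraries used. The code was tested on simulated data. The 10 genes and all lists were chosen with earlier results of these data known. The named genes were all 10, and of each pathway list the called genes with the smallest adjusted p, at most 4. Others named for contrast were picked after their values were seen. Some list genes enter the counts but are not reported by name here. The 7 pathway lists were mTOR partners and chaperones, growth factor to AKT, energy and kinase inputs, amino acid sensing, Rag GTPases and Ragulator, mTORC1 substrates and mTORC2 substrates. The last of these also held proteins further down, such as Foxo1. The 9 marker lists are given with their counts. Sequences and coordinates came from RefSeq and GENCODE on GRCm38 (mm10).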

Additional observations from a re-analysis of the deposited data

Results flagged for a closer look

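None of the 10 genes had a library far from the rest of its group (Dixon's test at the 95% level), and the genotype difference of none of them differed between odd and even numbers by the adjusted limma interaction test (1, Rheb, at an unadjusted p under 0.05). Among the pathway genes named beside them, 5 of 42 groups of 4 libraries had a sample apart, where chance gives about 1 in 20. For these, the share of the range taken by the gap was 0.85 for Telo2 in controls (control 3 at 6.38 FPKM, the others at 5.28 to 5.44) and 0.953 for Ddit4l in controls (control 4 at 3.36 FPKM, the others at 1.64 to 1.72). It was 0.905 for Prr5 in knockouts (knockout 4 at 0.861 FPKM, the others at 1.07 to 1.09), 0.875 for Rragc in knockouts (knockout 1 at 52.2 FPKM, the others at 59.5 to 60.5), and 0.875 for Rps6 in knockouts (knockout 2 at 436 FPKM, the others at 387 to 393).

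The genotype difference of 2 pathway genes differed between odd and even replicate numbers by a limma interaction term. Pik3cb fell by 1.04 on the log2 scale among the odd-numbered libraries and had -0.14 among the even-numbered ones (interaction -0.90, SE 0.11, adjusted p = 0.013), with knockouts 1 and 3 at 3.50 and 3.58 FPKM and knockouts 2 and 4 at 5.99 and 6.06. Rragd rose by 2.93 among the odd-numbered and by 2.14 among the even-numbered libraries (interaction 0.80, SE 0.12, adjusted p = 0.0271). All Rragd controls were under the filter of 1 FPKM, so it was tested only through its high knockout values. The split was chosen with earlier results of these data known, so both p-values are a description. Of all tested genes 1.62% passed the interaction test.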

How the results depend on the processing

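Over 20 alternatives the 10 genes gave 197 values (Tsc1, Deptor and Mlst8 had none with a filter at 5 FPKM): 182 kept direction and side of the threshold, 11 lost a call and 4 changed sign. With 1 library left out, the log2 difference of Mtor ran from -0.0116 to 0.127; it had -0.0414 among the odd-numbered libraries, -0.0116 without knockout 2 and -0.0045 without knockout 4, and Rictor had 0.0429 among the even-numbered libraries. All 4 calls held with both other pseudocounts, both scalings, other filters that kept the gene, library weights and no trend; the calls lost by leaving out libraries are given with each gene. Genes called over the whole table ran from 1611 to 2636 higher and from 1417 to 2353 lower over the alternatives that kept or split the groups, and from 1696 to 1889 and 1454 to 1620 with 1 library left out. Of the 21 named pathway genes, 11 kept their call under every alternative run and 10 lost it under at least 1, with 0 changes of sign.

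Same-numbered libraries did not deviate together in every pair (correlations 0.0656, 0.138, 0.135 and 0.173), and 3 of 8 correlated best with their own number, so the numbers were not taken as pairs. With the replicate block the calls of the 10 genes were unchanged (Tsc1 -0.44, adjusted p = 0.00801; Rheb -0.28, 0.0268; Tsc2 -0.26, 0.0236; Akt1s1 0.23, 0.0362). Of the 21 named pathway genes it ended the calls of Pik3cb (adjusted p = 0.0579) and Mapk3 (0.0513). With no filter the calls of Pik3cb (0.0508), Insr, Tfeb and Eif4ebp1 were lost. A sign-flip test of the ratios with the same block cannot go below 0.125.

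The log2 ratio of Rptor to Rictor changed sign without control 2, control 3 or knockout 2, and ran from -0.0864 to 0.0338 over its alternatives. With 1 library left out, the ratio of Tsc1 to Tsc2 ran from -0.351 to -0.159 in log2 terms. The 196 genes whose genotype difference differed between odd and even numbers became 92 without a filter and 32 to 107 with 1 library left out, alternatives chosen after seeing the data. FPKM carries no absolute depth, so no counting error can be given.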
